A study of Solanum pimpinellifolium with 6 samples.

Results

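The NAC domain transcription factors are a plant gene family, and 84 of the 34723 genes with values in the deposited table were taken as its members. A member is a gene whose description, up to the annotation code, contains the words NAC domain or NAC transcription. The ripening genes NOR (Solyc10g006880) and NOR-like1 (Solyc07g063420) were left out of the members. All 84 members also carry the NAM (no apical meristem) domain in their description. In 56 of them the name itself holds the code of that domain, IPR003441, so this is no independent check. A further 15 genes with that domain lie outside the members, NOR and NOR-like1 aside. Names spelled NAC-domain, with a hyphen, were not taken as members and belong to 7 genes.

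RNA from tomato fruits 2 days after anthesis was sequenced in 3 libraries labelled RNAi line 207 and 3 libraries labelled as its nontransgenic sibling, and the comparison asks which NAC transcripts differ between the 2 labels. All 6 libraries came from the currant tomato Solanum pimpinellifolium LA1589, from plants 2 months old whose flowers were pollinated by hand. Line 207 carries an RNAi construct against the zinc finger gene SlZFP2. It is 1 transgenic line, and the promoter driving the construct is not given in the sources used here.

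NAC proteins bind DNA through a conserved domain at the amino end, which gave the family its name from the petunia gene NAM and the Arabidopsis genes ATAF and CUC. The rest of the protein varies and activates or represses transcription. Members of the CUC and NAM type set organ boundaries, members of the NAP and ORE1 type drive leaf senescence, members of the ATAF type respond to abscisic acid (ABA), jasmonate and water loss, and NOR is needed for tomato fruit ripening.

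Expression was read as FPKM, a unit that no source used here states. FPKM are fragment numbers divided by gene length and library total, so on that reading levels can be set side by side between genes. The libraries differed in depth, which could be derived only relative to sibling replicate 1: it was 0.384 to 0.786 of that library in labelled line 207 and 0.796 to 1 in the labelled siblings. The RNAi target SlZFP2 (Solyc07g053570) had 10.3, 9.03 and 7.45 FPKM in the libraries labelled line 207, against 2.89, 3.05 and 0.00147 FPKM in those labelled sibling. That order goes against the direction silencing would give, although the difference did not pass the test (limma adjusted p = 0.112), so every direction below is one between labels. Whether the labels are exchanged, or the values hold reads of the RNAi construct itself, was not tested. One protocol names shoot tips, whereas the sample labels name fruits. The fruit and carpel markers TM29, a MADS-box gene (557 to 652 FPKM in labelled line 207 and 492 to 585 in the labelled siblings), and TM5 were high in all 6 libraries, while AGL11 stood near 0 in all but sibling replicate 3. TAGL1 had 72.0, 70.9 and 0.0124 FPKM in labelled line 207, against 28.2, 0.000922 and 30.9 FPKM in the labelled siblings, near 0 in 1 library of each group. The 5 fruit markers summed to 833 to 1017 FPKM in labelled line 207 and 693 to 827 FPKM in the labelled siblings, with 4 tested, TAG1 higher and 0 lower. Of the shoot meristem markers, FALSIFLORA was listed at 0 throughout and TKN2 did not exceed 5.84 FPKM. The 56 genes listed for xylem and secondary wall (laccases and a cellulose synthase) summed to 187 to 208 FPKM in labelled line 207 and 455 to 687 FPKM in the labelled siblings, with 26 tested, 5 lower, 0 higher and 16 at 0 in every library. The pollen marker LAT52 had 6.71 to 8.24 FPKM in labelled line 207 and at 7.58, 37.2 and 39.4 FPKM in sibling replicates 1 to 3. The part of these tissue markers in the NAC differences was not tested. In whole fruits, fewer cells of a type and less RNA per cell cannot be told apart.

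The members divided by level. At least 1 FPKM in 3 or more libraries was required for testing, and 39 members met it (46.4%, against 45.4% of all genes). Another 25 members were listed at 0 in all 6 libraries (29.8%, against 35.6% of all genes). The remaining 20 had a value in some library but stayed below the filter, 10 of them with a single library at or above 1 FPKM and 2 with none. By description, 26 of the 56 genes called NAC domain protein IPR003441 were tested, as were 8 of the 16 called NAC domain transcription factor. Of the 7 called NAC transcription factor, 2 were tested and 5 were at 0 in every library. Some members that follow each other in the identifier numbering were listed at 0 together. Solyc02g061870, Solyc02g061900, Solyc02g062060 and Solyc02g062210 were at 0 throughout. So were the pairs Solyc03g114220 and Solyc03g114260, Solyc06g063380 and Solyc06g063430, and Solyc07g053590 and Solyc07g053680. Others differed: Solyc02g061780, the member before Solyc02g061870, was tested. The members before SlORE1S02 and SlNAP1, Solyc02g087920 and Solyc05g007550, were listed at 0. From each of these members to the next the identifiers step by 30 to 260, where the nearest identifiers step by 10. Other genes can therefore lie between them. A listed 0 need not mean no transcript, since reads of close relatives can be assigned to one of them.

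More NAC genes were higher than lower in the libraries labelled line 207. Of the 39 tested members 8 were higher, or 20.5%, where 5.01% of all 15766 tested genes were called higher (limma on log2(FPKM + 1), Benjamini-Hochberg adjusted p at most 0.05). One member was lower, or 2.56%, where the figure over all genes was 5.04%. In total 23.1% of the tested members were called, against 10.1% of all tested genes. The median log2 fold change, labelled line 207 minus labelled sibling on the log2(FPKM + 1) scale and written below as the log2 difference, was 0.78 over the tested members and -0.09 over all tested genes. The members were not replicates of each other, and a member expressed in 1 group alone could pass the filter through that group.

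Labelled line 207 and labelled sibling had no overlap in FPKM in 21 of the 39 tested members, or 53.8%, against 33.2% of all tested genes. In 19 of them, or 48.7%, every library labelled line 207 lay above every labelled sibling, which held for 15.6% of all tested genes. In 2 members, or 5.13%, every library labelled line 207 lay below, against 17.6% of all tested genes. The better expressed members carried most of this. Among the 20 with a mean of at least 10 FPKM over the 6 libraries, 15 lay entirely higher in labelled line 207, and 7 of the 8 higher calls fell there. In the whole table, 20.1% of the 8713 genes at that level lay entirely higher and 7.49% were called higher. The mean used for this split takes in both groups, so a gene could reach it through 1 group alone. Solyc12g013620 (mean of 7.90 FPKM in the labelled siblings) and Solyc03g115850 (7.42 FPKM there) did so through labelled line 207. Solyc10g055760 (mean of 6.28 FPKM in labelled line 207) did so through the labelled siblings. Among the 19 members with lower means, 5 had groups that did not overlap and 1 was called. Both shares were also smaller among low genes in the whole table, since over all tested genes 15.6% lay entirely higher and 5.01% were called higher. The exact shares below 10 FPKM were not taken.

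**Figure D1:**
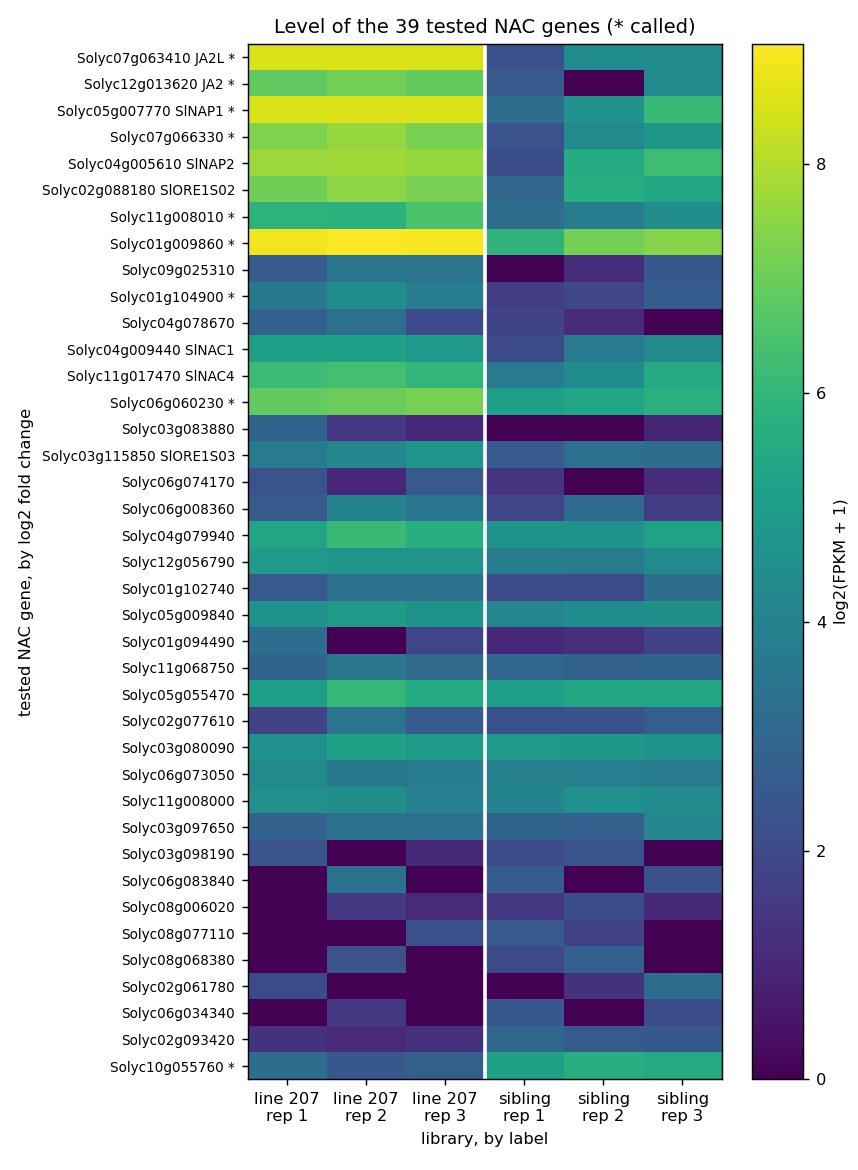
Level of each of the 39 tested NAC genes (rows, ordered by log2 fold change, labelled line 207 minus labelled sibling) in each library (columns) as log2(FPKM + 1), with called genes starred. The 8 starred genes near the top are brighter in all 3 libraries labelled line 207, and Solyc10g055760, the 1 lower call, is at the bottom.

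Leaving out a library changed the number of higher calls most on the line 207 side. It was 4, 3 and 4 without line 207 replicates 1, 2 and 3, and 8, 7 and 8 without sibling replicates 1, 2 and 3. Over all genes the share called higher, 5.01% with all libraries, was 2.17%, 1.73% and 2.02% without line 207 replicates 1, 2 and 3, and 4.63%, 2.99% and 3.83% without sibling replicates 1, 2 and 3. The smaller number of member calls thus went with fewer calls in the whole table, in fits that rest on 5 libraries each. JA2L (Solyc07g063410), Solyc06g060230 and the lower gene Solyc10g055760 were the 3 members called in every one of these fits. Genes with a deposited p-value below 1 were read as tested by the authors. On that reading the authors' deposited table tested 21 members and calls 14 at a q of at most 0.05, where it calls 28.4% of the 9583 genes so read. It gives 13 members as higher and 1 as lower, against 12.8% and 15.6% of those genes. That table shares 8 of its 14 member calls with limma, and 8 of the 9 limma calls are in it.

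**Figure D2:**
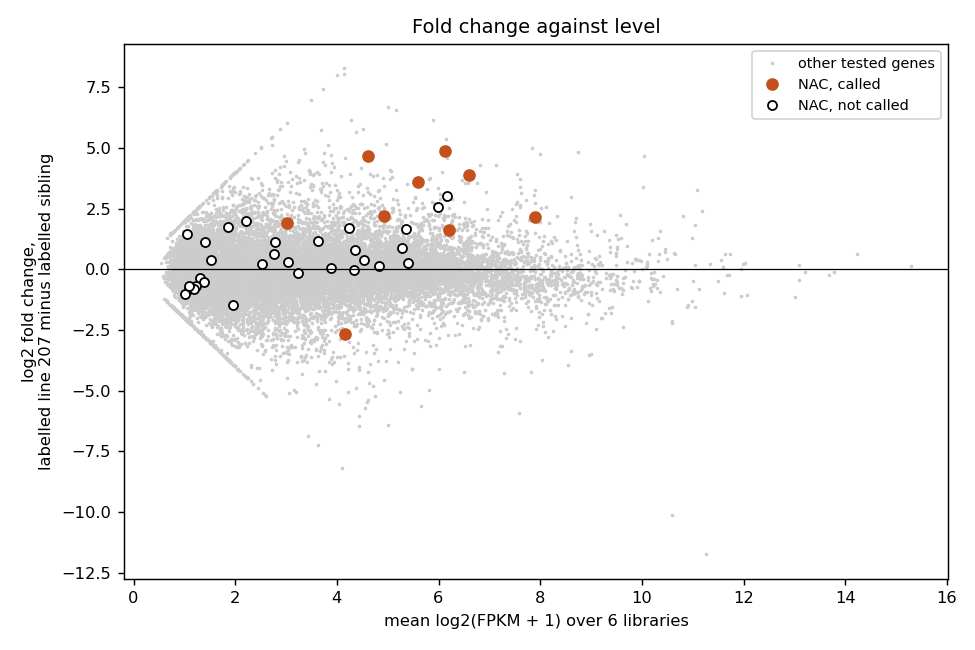
Log2 fold change (labelled line 207 minus labelled sibling) against mean log2(FPKM + 1) over the 6 libraries for the 39 tested NAC genes and all other tested genes (grey). Filled points are the 9 called NAC genes, 8 above zero and 1 below, and the open points are the 30 that were not called.

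Among members of the ATAF type, JA2L was higher in each of the 14 alternative fits, with log2 differences of 4.16 to 5.21. In tomato leaves JA2L promotes stomatal reopening through salicylic acid metabolism. It had 369, 376 and 376 FPKM in the libraries labelled line 207, against 3.91, 20.1 and 19.9 FPKM in the labelled siblings. The lowest library of labelled line 207 was thus 18.4 times the highest labelled sibling, and the means differed 25.6-fold (log2 difference 4.86 ± 0.55 SE, limma adjusted p = 0.00487). JA2L stood among the most abundant transcripts of labelled line 207, at rank 253 of 22350 genes with any value.

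Its relative JA2 (Solyc12g013620), which in guard cells raises the ABA synthesis gene NCED1, was also higher. JA2 had 113, 137 and 117 FPKM in labelled line 207, against 4.95, 0.000864 and 18.7 FPKM in the labelled siblings. The groups lay far apart, with 6.03 times between their nearest libraries (log2 difference 4.65 ± 0.97 SE, limma adjusted p = 0.0291). Because sibling replicate 2 is near 0, no ratio of means is given and the size of the log2 difference rests on the pseudocount of 1. With a pseudocount of 0.1 it was 5.85 and JA2 was not called (limma adjusted p = 0.0999). JA2 kept its call without sibling replicates 2 or 3 and lost it without sibling replicate 1 or any 1 line 207 library (limma adjusted p up to 0.0852). The authors' deposited table gives JA2 a q of 0.0643.

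The other listed members of the ATAF type lay higher without passing the test. SlNAC1 (Solyc04g009440), first described for its binding to a replication enhancer protein of geminiviruses, had 34.3, 35.6 and 29.0 FPKM in labelled line 207, against 3.31, 12.2 and 19.3 FPKM in the labelled siblings (log2 difference 1.69 ± 0.56 SE, limma adjusted p = 0.106). SlNAC4 (Solyc11g017470), reported as a promoter of tomato ripening, had 73.0, 82.4 and 61.6 FPKM in labelled line 207, against 11.8, 20.3 and 44.9 FPKM in the labelled siblings. Its groups did not overlap, yet the nearest libraries were only 1.37 times apart (log2 difference 1.65 ± 0.45 SE, limma adjusted p = 0.0631). Sibling replicate 3 had the highest sibling value, and without it SlNAC4 was called (limma adjusted p = 0.018) at a 4.50-fold difference of means, against 2.81-fold with it. In the authors' deposited table both pass, with a q of 0.000439 for SlNAC1 and 0.00305 for SlNAC4.

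Genes of the NAP type, named for an Arabidopsis regulator of leaf senescence that acts with ABA, were among the most abundant members. SlNAP1 (Solyc05g007770) had 367, 382 and 369 FPKM in labelled line 207, against 8.53, 23.9 and 67.0 FPKM in the labelled siblings. It was higher, by 11.2-fold between means (log2 difference 3.88 ± 0.63 SE, limma adjusted p = 0.0137). Without sibling replicate 3 the difference of means was 22.9-fold, and without line 207 replicate 2 the call was lost (limma adjusted p = 0.0518). In labelled line 207 its level of 372 ± 8.07 FPKM (SD, n = 3) was within the spread of that of JA2L at 374 ± 3.81 FPKM (SD, n = 3).

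SlNAP2 (Solyc04g005610), reported to act in tomato leaf senescence, had 204, 216 and 195 FPKM in labelled line 207, against 3.52, 46.0 and 74.2 FPKM in the labelled siblings. Its nearest libraries were 2.63 times apart, but the siblings spread widely and the difference did not pass (log2 difference 3.03 ± 0.96 SE, limma adjusted p = 0.0959). Without sibling replicate 1, the lowest, SlNAP2 was called with a smaller log2 fold change of 1.79 (limma adjusted p = 0.0101). The difference of means was 4.96-fold with all libraries and 8.27-fold without sibling replicate 3. In the authors' deposited table SlNAP2 carries a q of 0.000439.

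Genes of the ORE1 type take their name from an Arabidopsis gene that promotes age-dependent leaf death. SlORE1S02 (Solyc02g088180) had 136, 176 and 147 FPKM in labelled line 207, against 6.86, 51.3 and 42.5 FPKM in the labelled siblings (log2 difference 2.55 ± 0.68 SE, limma adjusted p = 0.0605). The groups were apart by 2.65 times at their nearest, and the difference passed without sibling replicate 1 (log2 fold change 1.68, limma adjusted p = 0.0065). SlORE1S03 (Solyc03g115850) had 11.8, 17.2 and 25.6 FPKM in labelled line 207, against 5.06, 8.95 and 8.24 FPKM in the labelled siblings, and did not pass (limma adjusted p = 0.122). The authors' deposited table calls both, with a q of 0.000439 and 0.0241. SlORE1S06 (Solyc06g069710) reached 2.04 FPKM in sibling replicate 2 and stayed at 0.0187 FPKM or below elsewhere. Its level was too low for a test.

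Of the 11 members listed by role, 8 were tested. In all 8 the groups did not overlap and labelled line 207 was the higher, while 3 passed the test over all genes and 0 were lower. Over all tested genes, 15.6% lay entirely higher and 5.01% were called higher. The list had been chosen with earlier results of these data known, so these counts describe it and support nothing further. The 3 members listed by role that were not tested include GOB (Solyc07g062840), the tomato boundary gene that shapes leaflets and the shoot meristem. GOB had 0, 1.55 and 1.97 FPKM in labelled line 207, against 0.771, 0.952 and 0 FPKM in the labelled siblings. SlJUB1 (Solyc05g021090), linked to drought tolerance in tomato, was listed at 0 except for 1.89 FPKM in line 207 replicate 2.

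**Figure D3:**
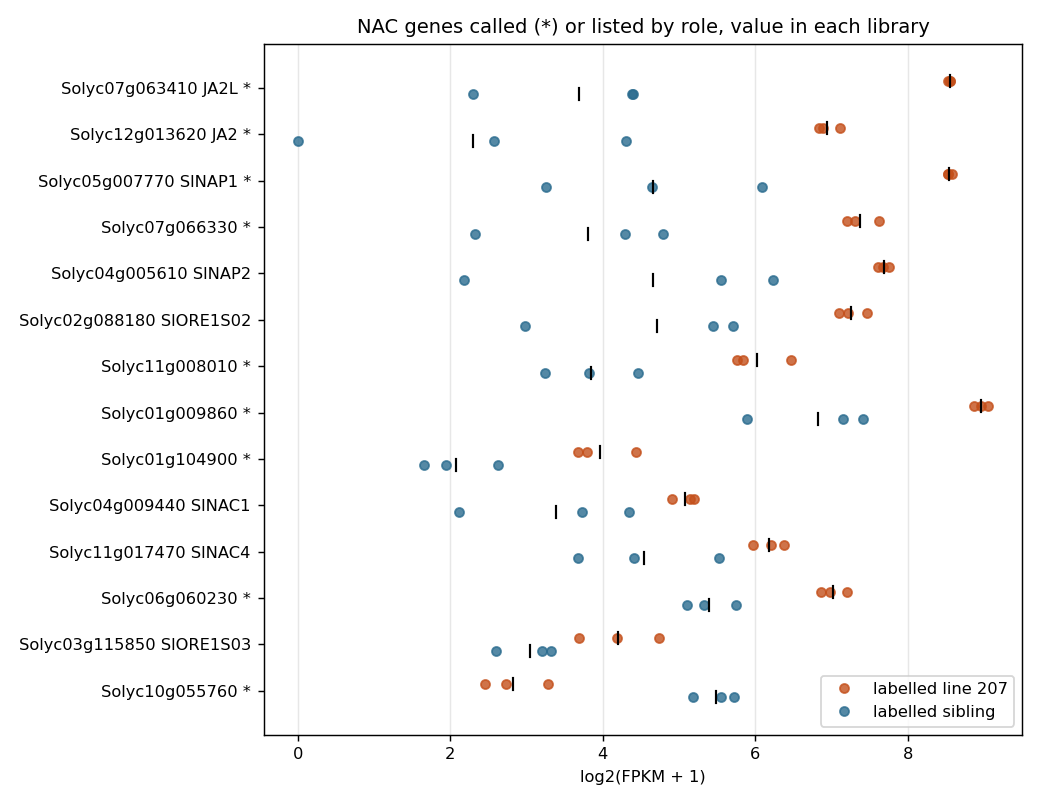
Value of each library as log2(FPKM + 1) for the 9 called NAC genes (starred) and the other tested genes listed by role, ordered by log2 fold change, with labelled line 207 above labelled sibling in each row and a black tick at the mean of each group. JA2L, JA2 and SlNAP1 stand highest in the order, and in every row but Solyc10g055760 the 3 libraries labelled line 207 lie right of all labelled siblings.

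Members without a role in the list made up 5 of the 8 higher calls. Solyc01g009860, described as a NAC domain transcription factor, was the most abundant member in both groups. It had 467, 530.0 and 495 FPKM in labelled line 207, against 58.5, 141 and 170 FPKM in the labelled siblings (4.04-fold, log2 difference 2.14 ± 0.38 SE, limma adjusted p = 0.0176). Its rank among the 22350 genes with any value was 175 in labelled line 207 and 1067 in the labelled siblings. The call was lost without any 1 line 207 library (limma adjusted p up to 0.0627), with the fold change almost the same at 2.09 to 2.18 on the log2 scale.

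Solyc07g066330 had 158, 197 and 146 FPKM in labelled line 207, against 3.99, 18.6 and 26.7 FPKM in the labelled siblings. It was 10.2-fold higher between means and 5.48 times apart at the nearest libraries (log2 difference 3.58 ± 0.60 SE, limma adjusted p = 0.015). The call was lost without line 207 replicates 1 or 2 (limma adjusted p up to 0.0582).

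Solyc06g060230 was the higher gene with the smallest fold change among the 8, and it was called in each of the 14 alternative fits. It had 115, 126 and 147 FPKM in labelled line 207, against 33.5, 39 and 52.9 FPKM in the labelled siblings (3.09-fold, log2 difference 1.62 ± 0.21 SE, limma adjusted p = 0.00729). Its siblings were also the least scattered among the higher calls, with a coefficient of variation of 24.0%.

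Solyc11g008010 and Solyc01g104900 were higher at more modest levels. Solyc11g008010 had 56.4, 53.4 and 87.9 FPKM in labelled line 207, against 8.49, 13.1 and 20.9 FPKM in the labelled siblings (4.64-fold, log2 difference 2.19 ± 0.36 SE, limma adjusted p = 0.0143), a call lost without line 207 replicate 3 (limma adjusted p = 0.0518). Solyc01g104900 had 11.8, 20.6 and 12.9 FPKM in labelled line 207, against 2.15, 2.85 and 5.17 FPKM in the labelled siblings (4.44-fold, log2 difference 1.89 ± 0.45 SE, limma adjusted p = 0.0454). This was the weakest of the 9 calls and was lost whichever library was left out (limma adjusted p up to 0.122). In the authors' deposited table these 5 genes pass, with a q of 0.0278 for Solyc01g104900 and 0.000439 for each of the others.

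Solyc10g055760 was the only tested member called lower in the libraries labelled line 207. It had 8.72, 4.47 and 5.66 FPKM in labelled line 207, against 35.2, 51.6 and 45.8 FPKM in the labelled siblings. The means were 7.03-fold lower in labelled line 207 (log2 difference -2.66 ± 0.32 SE, limma adjusted p = 0.00588), and the call held in each of the 14 alternative fits. Solyc10g055760 was the second most abundant member in the labelled siblings, after Solyc01g009860. The authors' deposited table calls it too, with a q of 0.00645.

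Solyc02g093420, described as a NAC domain class transcription factor, also lay entirely lower but did not pass. It had 1.48, 1.14 and 1.44 FPKM in labelled line 207, against 7.24, 4.94 and 4.57 FPKM in the labelled siblings (log2 difference -1.46 ± 0.46 SE, limma adjusted p = 0.0954). The other low members named for the smallest p on the lower side were scattered. Solyc06g034340 had 0, 1.87 and 0 FPKM in labelled line 207, against 4.45, 0 and 3.19 FPKM in the labelled siblings (limma adjusted p = 0.499). Solyc02g061780, Solyc08g068380 and Solyc08g006020 likewise had groups that overlapped, with limma adjusted p of 0.646, 0.646 and 0.536.

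A further set of well expressed members showed overlapping groups. Solyc05g055470, among the 10 most abundant members, had 32.1, 64.3 and 45.0 FPKM in labelled line 207, against 32.9, 41.0 and 39.6 FPKM in the labelled siblings (log2 difference 0.26 ± 0.28 SE, limma adjusted p = 0.606). Solyc03g080090 averaged 29.2 ± 6.50 FPKM in labelled line 207 and 26.4 ± 2.80 FPKM in the labelled siblings (SD, n = 3 each), a difference within the spread. Over the 18 tested members with overlapping groups, low ones included, the log2 fold change ran from -1.0 to 1.13, positive in 9 and negative in 9. The smallest limma adjusted p was 0.313. These members were picked for their overlap, so the lack of a small p follows in part from that choice. Between these and the called genes stood Solyc04g079940, at 39.1, 69.8 and 51.1 FPKM in labelled line 207, against 23.7, 24.2 and 36.7 FPKM in the labelled siblings (limma adjusted p = 0.101). The authors' deposited table calls Solyc04g079940, with a q of 0.00472. Among the 20 members below the filter the highest value was 13.3 FPKM, in Solyc03g062750, singled out after its values were seen. It had 0, 10.8 and 13.3 FPKM in labelled line 207 and listed at 0 in all 3 labelled siblings.

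The higher genes varied less across the libraries labelled line 207 than across the labelled siblings, relative to their means. The coefficient of variation of FPKM was smaller in labelled line 207 for each of the 8 higher members, where the same held for 75.2% of the 790 genes called higher in the whole table. Its median over the 8 members was 11.5% in labelled line 207 and 55.2% in the labelled siblings, and over those 790 genes it was 17.4% in labelled line 207 and 33.9% in the labelled siblings. Over the 8 members it ranged from 1.02% to 31.8% in labelled line 207 and from 24.0% to 123% in the labelled siblings. The median over all tested genes was 35.4% in labelled line 207 and 34.7% in the labelled siblings. For the 1 lower call, Solyc10g055760, the coefficient was the larger in labelled line 207 (0.348, against 0.187 in the labelled siblings). Sibling replicate 1 was the lowest sibling for 7 of the 8 higher members, the exception being JA2, and for 56.3% of the 790 genes called higher in the whole table. That library was the lowest sibling for 16 of the 19 members lying entirely higher (84.2%), where it was the lowest for 50.1% of the 2452 genes lying entirely higher in the whole table.

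Summed over all 84 members, the NAC level was 2397, 2727 and 2509 FPKM in labelled line 207, against 401, 671 and 868 FPKM in the labelled siblings. The libraries labelled line 207 were close to each other, while sibling replicate 1 had less than the other siblings. As a share of all FPKM in the library, this was 0.265% to 0.320% in labelled line 207 and 0.0380% to 0.0736% in the labelled siblings. The 8 members with the highest mean over the 6 libraries made up 78.4% to 80.5% of the sum in labelled line 207 and 30.8%, 50.7% and 54.3% of it in sibling replicates 1 to 3. That ranking is set mainly by labelled line 207, where the sums are larger. It includes JA2 (7.90 ± 9.71 FPKM in the labelled siblings, SD, n = 3) and leaves out Solyc10g055760 (44.2 ± 8.29 FPKM there, SD, n = 3), so the smaller share in the labelled siblings follows in part from the choice. Without those 8, the remaining 76 members summed to 468 to 588 FPKM in labelled line 207 and 278 to 397 FPKM in the labelled siblings.

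**Figure D4:**
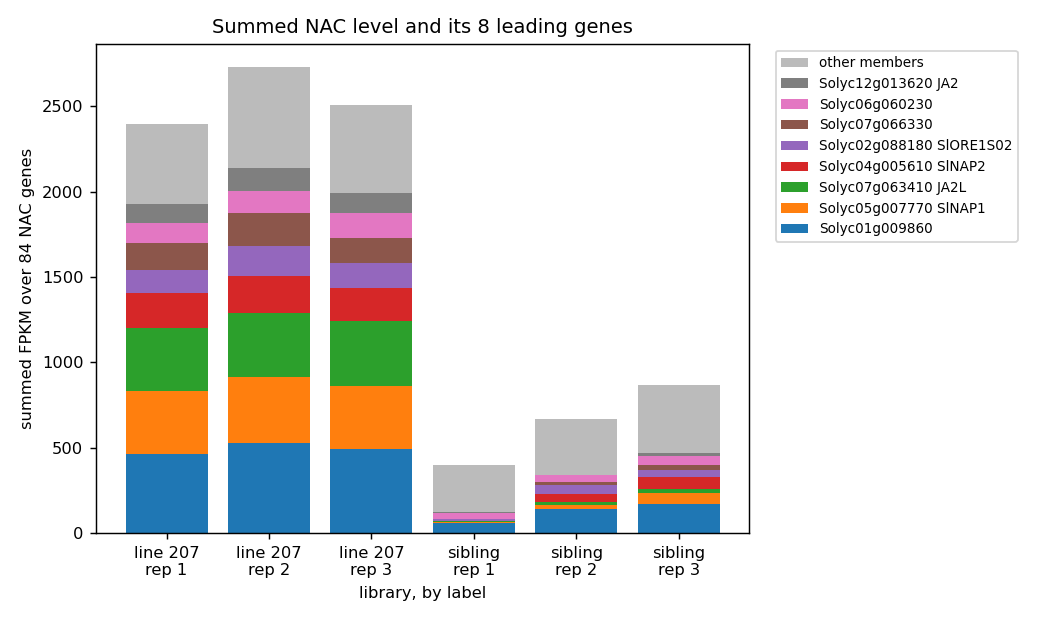
FPKM summed over the 84 NAC genes in each library (bars), divided into the 8 genes with the highest mean over the 6 libraries (colours) and the rest (grey). The bars reach 2397 to 2727 FPKM in labelled line 207 and 401 to 868 FPKM in labelled sibling, and the coloured part makes up 78.4% to 80.5% of each bar in labelled line 207.

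Neighbours in the identifier numbering did not always move together. Solyc11g008000, whose identifier precedes Solyc11g008010, had 22.3, 21.4 and 14.3 FPKM in labelled line 207, against 16.0, 22.3 and 20.3 FPKM in the labelled siblings (log2 difference -0.03 ± 0.28 SE, limma adjusted p = 0.964), while Solyc11g008010 was called higher. The difference between the 2 genes was not itself tested. JA2L precedes NOR-like1 (Solyc07g063420), a ripening NAC gene outside the members. NOR-like1 also lay entirely higher, at 21.7, 12.9 and 13.8 FPKM in labelled line 207, against 3.81, 7.94 and 4.40 FPKM in the labelled siblings. Its difference had the same direction as that of JA2L but did not pass (log2 difference 1.44 ± 0.42 SE, limma adjusted p = 0.0752). Whether it differed from that of JA2L was not tested. The authors' deposited table gives NOR-like1 a q of 0.0301. NOR itself was listed at 0 in all 6 libraries.

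Genes reported in tomato to lie downstream of NAC factors were read from a list of 10. Of these 8 were tested, 4 were called higher and 0 lower, where 5.01% and 5.04% of all tested genes were called in those directions. ACO1 and ACS2 passed the filter through labelled line 207 alone, so the count and the list median of 1.90 on the log2 scale (-0.09 over all tested genes) are a description only. SGR1 (Solyc08g080090), a stay-green protein of chlorophyll breakdown linked to NAP and ORE1 factors, had 139, 110.4 and 107 FPKM in labelled line 207, against 8.28, 15.8 and 31.7 FPKM in the labelled siblings (6.40-fold, log2 difference 2.79 ± 0.44 SE, limma adjusted p = 0.0119). Like most of the higher NAC genes, SGR1 was lowest in sibling replicate 1.

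NCED1 (Solyc07g056570), the ABA synthesis gene downstream of JA2, was called higher with a log2 fold change of 3.81 ± 0.33 (SE) (limma adjusted p = 0.00226). So was CYP707A2 (Solyc08g005610) of ABA breakdown, with a call lost whichever library was left out (limma adjusted p up to 0.121). ACO1 (Solyc07g049530) of ethylene synthesis, called higher (limma adjusted p = 0.000504), had 155, 441 and 341 FPKM in labelled line 207, against 0.012, 0.2 and 0.0447 FPKM in the labelled siblings. ACS2 (Solyc01g095080), of the step before it, had 2.31, 7.17 and 5.65 FPKM in labelled line 207, against 0.443, 0.554 and 0.507 FPKM in the labelled siblings, and did not pass (limma adjusted p = 0.07). The expansin gene EXP1 also lay entirely higher without passing (limma adjusted p = 0.335). The pectate lyase gene PL (Solyc03g111690), which softens ripe fruit, lay entirely lower, at 11.2, 12.5 and 14.7 FPKM in labelled line 207, against 40.6, 20.9 and 30.5 FPKM in the labelled siblings (limma adjusted p = 0.0604). The endoglucanase gene CEL2 overlapped between groups (limma adjusted p = 0.826). PSY1 was below the filter and the polygalacturonase gene PG2A was listed at 0 in every library, both of them genes of ripe fruit. The number of listed genes called was 2 without line 207 replicate 1, 2 or 3 and 3 without any 1 sibling library. Without a line 207 library ACO1 was not tested, since only 2 libraries then reached 1 FPKM, so its absence from those counts is no lost call. Of the 10, SGR1 as higher and PL as lower pass in the authors' deposited table (q of 0.000439 each). That table tested NCED1 and ACO1 without calling them (q of 0.0785 and 0.320), and CYP707A2 was read as untested there.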

How the data were processed

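The 6 libraries were grouped by their labels, 3 per group. The authors deposited 1 value per gene and library, read as FPKM since values are not whole and library sums vary, and since the submitters' processing notes name TopHat 1.3.2 and Cufflinks. No source used here gives the unit, build, annotation or scaling. The deposited table adds a p-value and a q-value, taken as they stand. Genes whose deposited p-value equals 1 were read as left untested by the authors, an inference from the values. Of 34727 rows, 4 held no values. Cufflinks can share reads between similar genes, so levels of close relatives in a family are less certain.

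The test was limma (version 3.58.1, R 4.3.3) with a trended prior, run on log2(FPKM + 1) of the 15766 genes with at least 1 FPKM in 3 or more libraries. P-values were two-sided and adjusted over all of these genes by the Benjamini-Hochberg method at 0.05. The fit was also run on simulated data with a smaller residual spread than these libraries have. That run cannot show how the fit performs at their own spread. Fold changes on this log2 scale understate those of low genes, and ratios of means are given only where every library exceeds 0.2 FPKM. The series design calls the replicates biological; the labels do not tie them to separate plants, so p-values measure the spread between these samples, which may be in part technical. Read totals are not known. Relative depth is the most frequent ratio between low values, so intervals on single values could not be given.

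The members and lists were chosen with earlier results of these data known. Genes were named if called, among the 10 most abundant members, listed by role, at 0 in 1 group and at least 1 FPKM in every library of the other (none met this), or among the 5 smallest p in each direction of those not called. A few others are given as contrast. Symbols come from memory of the literature, not from the table. The supplied gene table of another assembly matched 0 identifiers, so no coordinates are given.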

Additional observations from a re-analysis of the deposited data

How the results depend on the processing

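The 1 lower call, Solyc10g055760, was made in all 14 alternative fits and by the authors' deposited q. The 8 higher calls became 6 to 9 with 0.1 or 5 added before the logarithm, a filter of 1 FPKM in 1 library, median centring, quantile normalisation or library weights. Those fits called 3.28% to 5.67% of all tested genes higher. The member calls became 3 with no filter and 13 by the authors' deposited q, by which 12.8% of the genes read as tested were higher. Leaving out 1 library gave 3 to 8 higher calls and 1 lower call each time. It left 35 to 37 members tested, of which 20 to 25 had groups that did not overlap, against 21 of 39 with all libraries. Smaller groups separate more easily, and no share over all genes was taken for overlap in these fits, so the counts do not show stability. Over all genes the share called higher was 1.73% to 4.63% in these fits and 2.46% with no filter, against 5.01% with all libraries and the filter. With no filter, 22 of the 59 members then tested did not overlap, again without a share over all genes. Downstream genes called numbered 4 with all libraries, all of them higher, and 2 to 3 when 1 library was left out (ACO1 fell below the filter without a line 207 library). By the authors' q they numbered 2, SGR1 as higher and PL as lower. CEL2 (Solyc09g010210) changed sign with library weights (log2 fold change 0.033, against -0.16 without weights) and without sibling replicate 1, where leaving out 1 library gave -0.38 to 0.19, with no call in any. The cause of these shifts was not tested, and each fit that left out a library also had fewer samples. The replicate numbers did not pair the libraries (correlation of deviations from the group means 0.00397, -0.00806 and -0.0105 for numbers 1 to 3). With the replicate number as a block, 7 members were called higher, 1 lower and 3 downstream genes in all. In that fit 3.08% of all tested genes were called higher. The median over all genes stayed between -0.12 and -0.03 on the log2 scale in every fit. Read depth is unknown, and values near 1 FPKM in the shallower libraries labelled line 207 are the least precise.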
